A study of Mus musculus with 8 samples.

Results

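Transcripts of 37 genes for protein folding and import in the endoplasmic reticulum (ER) were compared between mouse kidney cells with and without a knockdown of smgGDS. The genes were taken by symbol from the deposited table of 21879 genes, and all 37 were found and had enough counts to be tested. They cover Hsp70 and Hsp90 chaperones (3 genes), J proteins and other partners of the chaperone BiP (8), lectins and glycan-trimming enzymes (6), disulfide isomerases and oxidases (10), secreted folding factors (2), prolyl isomerases (3) and the translocon (5). The cells were TCMK-1, a mouse kidney epithelial line. The control group, 4 libraries, is labelled smgGDS control, and the knockdown group, 4 libraries, is labelled smgGDS shRNA. Cisplatin, a DNA-damaging platinum agent known for its toxicity to the kidney tubule, was given to both groups at 20 µM, so the comparison shows the knockdown within treated cells and not the response to the drug. The protocol also speaks of saline-treated cells, but all 8 libraries are labelled as given cisplatin. The shRNA sequence, and whether the knockdown cells were a single clone, are not given in the labels. The study's title places PERK-dependent ER stress between smgGDS and cisplatin injury, and the folding machinery is a main output of the ER stress response. Whether replicates were separate cultures is not given in the labels; p-values therefore measure only the spread over these libraries, and that spread may be technical.

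Proteins bound for secretion or membranes enter the ER through the Sec61 channel and fold there with the help of chaperones. BiP, an Hsp70, binds unfolded chains and is steered by J proteins and nucleotide exchange factors, while calnexin and calreticulin hold glycoproteins whose sugars have been trimmed, and protein disulfide isomerases form disulfide bonds with oxidising power from ERO1. When unfolded protein builds up, the sensors ATF6, IRE1 and PERK act, and ATF6 and XBP1 raise many chaperone genes through a promoter element called the ER stress response element (ERSE).

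The element was searched in the promoters because it is the sequence the chaperone genes are known to share. The RefSeq promoter table for GRCm38.p6 gives 300 bases per start site, 250 before it and 50 after it, and held 39 promoters for 32 of the 37 genes. ERSE was spelled as CCAAT, 9 bases of any kind and CCACG, and searched on both strands. It was present in 8 of these 39 promoters, against 39 of 32851 promoters in the table (0.119%), the 8 included. The matches follow in the direction of the element with 5 flanking bases on each side, and the capitals mark its fixed letters.
Hspa5: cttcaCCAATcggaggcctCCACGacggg
Hsp90b1, proximal copy: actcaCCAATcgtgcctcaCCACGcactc
Hsp90b1, distal copy: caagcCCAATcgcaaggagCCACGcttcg
Calr: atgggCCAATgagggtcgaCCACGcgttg
Canx: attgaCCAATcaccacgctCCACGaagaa
Pdia6: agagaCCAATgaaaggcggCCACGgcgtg
Dnajc3: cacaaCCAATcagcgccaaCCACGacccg
Creld2: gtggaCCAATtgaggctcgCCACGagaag
Ero1lb: ggcggCCAATgaggcgggaCCACGaggcc
The Hspa5 copy lies at chr2:34772020-34772048 on the plus strand and ends 46 bases before the start site. The Hsp90b1 copies lie at chr10:86705528-86705556 on the plus strand, against the direction of the gene, and at chr10:86705633-86705661 on the minus strand, and end 88 and 193 bases before the start. All 9 copies end before the start site, the farthest 182 and 193 bases away in Ero1lb and Hsp90b1. Each contains the pentamer CCAAT, which by itself was present in 37.4% of all promoters.
Other motifs of the ER stress response were found in fewer of the 39 promoters than ERSE. The ERSE-II spelling, ATTGG and CCACG with 1 base of any kind between them, was in 0.0365% of all promoters. Among the 39 it was in 1, that of Dnajb11, where it lies past the start site. The XBP1-type spelling TGACGTGG (UPRE) was in 0.676% of all promoters and in 2 of the 39, those of Txndc5 and Txndc11. These copies are shown in the same way, with the motif in capitals.
Txndc5: gccgcTGACGTGGcgcta
Txndc11: gtggcTGACGTGGagagt
The Txndc5 copy lies at chr13:38528040-38528057 and the Txndc11 copy at chr16:11134622-11134639, both on the minus strand and in the direction of the gene. They end 130 and 94 bases before the start site of their window. Both lie inside the gene's own span (Txndc5 38500266 to 38528824, Txndc11 11074911 to 11134645). A match is a description of the letters and not a measured binding site.

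Total expected counts per library were 11560977 to 16059158 in the controls and 12746051 to 14280962 in the knockdown. Rap1gds1, the gene of smgGDS, was at 15.5 to 17.0 CPM (the gene's counts scaled to a common library size) in the controls and 2.36 to 2.80 CPM in the knockdown, which matches the labels (log2 fold change -2.62, SE 0.13, edgeR adjusted p = 2.72e-19). Knockdown replicate 4 stood apart on the first principal component, with a score of 20.9, while the scores of knockdown replicates 1 to 3 were 8.86 to 9.58. Among the controls, replicate 2 scored -16.5, and replicates 1, 3 and 4 scored -12.2 to -8.86. Of 8 tubule epithelial markers, 5 had enough counts to be tested, and the defining cadherins Cdh16 and Cdh1 were near 0. Of the 5 tested, 0 passed an edgeR adjusted p of 0.05. Their log2 fold changes were negative for 3 and positive for 2, from -0.68 for Krt18 to 0.30 for Epcam. Of 5 fibroblast and pericyte markers the 3 tested all rose, where 11.1% of all tested genes rose. Their summed level was 280.2 to 305 CPM in the controls and 327 to 378 CPM in the knockdown, nearly all of it Col1a1, while Lum and Pdgfra were near 0. Their part in the results below was not tested. Endothelial and plasma cell markers were near 0, and of 4 leukocyte markers Cd68 alone was tested. In bulk libraries a change in RNA per cell and a change in the share of expressing cells cannot be told apart.

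In the knockdown, 5 of the 37 transcripts rose and 3 fell, each by less than 20% of its control level. The genes that rose were the oxidase Ero1l, the disulfide isomerases Txndc5 and Tmx3, the secreted factor Manf and the prolyl isomerase Ppib. The genes that fell were the chaperone Hsp90b1, the BiP co-chaperone Dnajb9 and the glucosidase subunit Prkcsh. Called genes made up 21.6% of the 37, against 20.2% of all 11576 tested genes (edgeR quasi-likelihood test, Benjamini-Hochberg adjusted p under 0.05). By direction 13.5% of the 37 rose against 11.1% of all genes, and 8.11% fell against 9.15% of all genes, so with TMM scaling the share of calls was near the background. Under scaling by library total 35.1% of the 37 were called against 23.5% of all genes, and on FPKM 27.0% against 17.9%. With TMM scaling the median log2 fold change of the 37 was 0.01, and that of all tested genes was 0.00. Under library totals these medians were -0.05 and -0.06. Without knockdown replicate 4, 4 rose and 2 fell, since Tmx3 and Prkcsh lost their calls.
Most of these transcripts are abundant, and abundant genes were called more often. Of the 20 members with at least 100 CPM in both groups, 6 were called (30.0%), against 38.0% of all 1919 genes at that level. Of these 20, 4 rose (20.0%) against 28.2% of the 1919, and 2 fell (10.0%) against 9.85%. Groups did not overlap for 10 of the 37 genes (27.0%), against 21.1% of all tested genes. The knockdown was the higher group for 4 of these 10 and the lower group for 6, against 1327 and 1113 over all tested genes. At 100 CPM or more in both groups 8 of the 20 did not overlap (40%), against 40.3% of all genes at that level. The knockdown was higher for 4 of these 8 and lower for 4, against 563 and 210 of all genes at that level. Of the 29 genes that did not pass, 19 had a 95% interval for the log2 fold change that lay within 0.15 on either side of 0. The interval was widest, 0.32 on either side of the estimate, for the J protein gene Dnajc1.

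**Figure D1:**
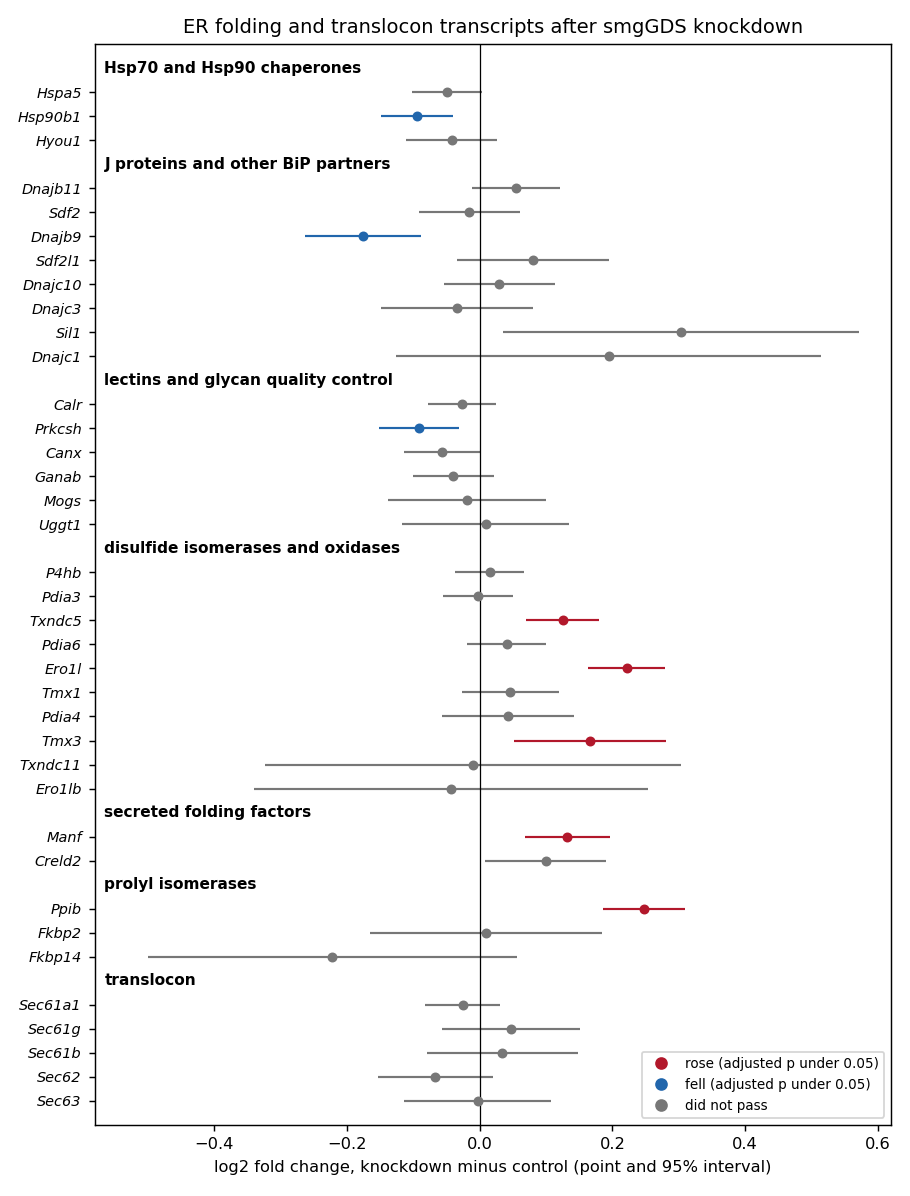
Log2 fold change of each of the 37 genes, knockdown minus control, with its 95% interval from the edgeR fit, grouped by role and ordered within a role by FPKM. The 5 genes that rose are red and the 3 that fell are blue; the 5 genes under 10 CPM (Sil1, Dnajc1, Txndc11, Ero1lb and Fkbp14) have the widest intervals.

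All 3 Hsp70 and Hsp90 chaperones had negative estimates, and Hsp90b1 passed the test. Hspa5 encodes BiP, the main Hsp70 of the ER and a standard readout of ER stress (chromosome 2, 34772090 to 34776529). It was at 1793, 1739, 1739.8 and 1749 CPM in control replicates 1 to 4 and at 1744, 1725, 1676 and 1639 CPM in knockdown replicates 1 to 4. The groups overlapped because knockdown replicate 1 lay above 2 of the controls. The means were 1755 ± 25.3 and 1696 ± 47.3 CPM (SD, n = 4 each). With TMM scaling the log2 fold change of -0.05 did not pass (95% interval -0.10 to 0.00, edgeR adjusted p = 0.189). Hspa5 passed as a fall under library totals (-0.11, edgeR adjusted p = 0.00136), where 16.9% of all genes fell. It also did so on log2(FPKM + 0.5) (-0.11, limma adjusted p = 0.0148), where 12.8% of all genes fell.
Hsp90b1 encodes GRP94, the Hsp90 of the ER, which folds integrins and Toll-like receptors (chromosome 10, 86690841 to 86705444). Its levels were 874, 839, 854 and 862 CPM in the controls and 820.5, 795, 814 and 783 CPM in the knockdown, so every knockdown library lay below every control. It fell by 0.09 on the log2 scale (SE 0.03, edgeR adjusted p = 0.0101), to 93.7% of control. Without control replicate 1 the estimate was -0.08 and did not pass (edgeR adjusted p = 0.0559). Hyou1, the large Hsp70-related exchange factor GRP170, was at 252 ± 9.85 and 245 ± 7.17 CPM (SD, n = 4 each) and did not pass. Under library totals Hyou1 passed as a fall (edgeR adjusted p = 0.0243).

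Among the 8 partners of BiP, Dnajb9 fell and the other 7 did not pass. Dnajb9 encodes ERdj4, a J protein that is known to bring BiP to the stress sensor IRE1 and to help degrade misfolded proteins (chromosome 12, 44205897 to 44210068). It was at 100.5, 103, 100.4 and 101 CPM in the controls and at 93.0, 91.9, 84.8 and 88.4 CPM in the knockdown. The controls lay close together and all above the knockdown, where replicate 3 was lowest. Dnajb9 fell by 0.18 on the log2 scale (SE 0.04, edgeR adjusted p = 0.00243), to 88.5% of control, and passed under all 19 alternative settings.
The most abundant partner per transcript length was Dnajb11, the J protein ERdj3 that binds unfolded chains directly. Its levels were 240.3, 233, 233 and 244 CPM in the controls and 251, 248, 252 and 236 CPM in the knockdown. Knockdown replicate 4 fell among the controls, and the log2 fold change of 0.06 did not pass (edgeR adjusted p = 0.252). Sdf2 and Sdf2l1, which form a complex with ERdj3, were at 146 and 145 CPM and at 45.7 and 48.2 CPM in controls and knockdown. The PERK inhibitor Dnajc3 (p58IPK) was at 45.5 and 44.4 CPM, and the disulfide reductase Dnajc10 (ERdj5) at 124 and 127 CPM. Sil1, a nucleotide exchange factor of BiP, had the largest estimate of the 37 genes, 0.30, but was low. It was at 5.66, 5.73, 8.17 and 7.19 CPM in the controls and 8.63, 7.93, 7.85 and 8.31 CPM in the knockdown (edgeR adjusted p = 0.103). Control replicate 3 lay within the knockdown range, and without it Sil1 passed (log2 fold change 0.42, edgeR adjusted p = 0.0355).

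The lectin and glycan quality control genes had small estimates, 5 of 6 of them negative, and Prkcsh passed. Prkcsh encodes the beta subunit of glucosidase II, which trims glucose from N-glycans so that lectins can bind them (chromosome 9, 22002988 to 22014245). It was at 371, 378, 382 and 385 CPM in the controls and 362, 350.5, 364 and 345 CPM in the knockdown, with no overlap. It fell by 0.09 on the log2 scale (SE 0.03, edgeR adjusted p = 0.0234), to 93.8% of control. That call was lost without control replicate 3, control replicate 4, knockdown replicate 2 or knockdown replicate 4, at edgeR adjusted p of 0.0617 to 0.07. With length and GC content of the transcript modelled, its estimate was -0.04 (edgeR adjusted p = 0.355).
Ganab, the catalytic subunit of the same glucosidase, was at 288 ± 1.82 and 280.5 ± 3.38 CPM (SD, n = 4 each). Its groups did not overlap, yet its log2 fold change of -0.04 did not pass (edgeR adjusted p = 0.39).
Calr, encoding the soluble lectin calreticulin, was the most abundant of the 37 transcripts per length. Its levels were 2208, 2137, 2222 and 2201 CPM in the controls and 2161, 2088, 2178 and 2183 CPM in the knockdown. The groups overlapped and the log2 fold change of -0.03 did not pass (95% interval -0.08 to 0.03, edgeR adjusted p = 0.523). The membrane lectin calnexin, Canx, was at 492 to 506 CPM in the controls and 474 to 491 CPM in the knockdown, without overlap, yet its estimate of -0.06 missed the threshold (edgeR adjusted p = 0.156). Uggt1, the folding sensor that puts glucose back on misfolded glycoproteins, and Mogs, glucosidase I, had estimates of 0.01 and -0.02. Calr, Canx and Ganab passed as falls under library totals and on FPKM, where 16.9% and 12.8% of all genes fell.

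Of the 10 oxidative folding genes 3 rose and none fell, where 11.1% of all genes rose. At 100 CPM or more in both groups the role held 6 genes, of which Ero1l and Txndc5 rose, where 28.2% of all genes at that level rose; the third rise, Tmx3, depended on the settings. Whether this role differs from other genes was not tested. Ero1l (ERO1 alpha), the oxidase that recharges protein disulfide isomerase and a known target of the stress factor CHOP, lies on chromosome 14, 45283087 to 45318572. It was at 443, 425, 430.2 and 444 CPM in the controls and 503, 513, 497 and 519 CPM in the knockdown. All 4 knockdown libraries lay above all 4 controls, by a gap wider than the range within either group. Ero1l rose by 0.22 on the log2 scale (SE 0.03, edgeR adjusted p = 1.77e-07), to 116.6% of control, and passed under all 19 alternatives. Its paralogue Ero1lb, the ERO1 beta of secretory cells, was low, at 5.61 CPM in the controls and 5.45 CPM in the knockdown, and its estimate of -0.04 missed the threshold (95% interval -0.34 to 0.25).
Txndc5 encodes ERp46, a disulfide isomerase with several thioredoxin domains (chromosome 13, 38500266 to 38528824). It was at 716, 709, 711 and 720.0 CPM in the controls and 790.2, 754, 779 and 792 CPM in the knockdown. Controls were tight and all below the knockdown, and Txndc5 rose by 0.13 on the log2 scale (SE 0.03, edgeR adjusted p = 0.000605), to 109.1% of control. On the authors' FPKM its estimate was 0.07 and did not pass (limma adjusted p = 0.0614).
Tmx3, a membrane-bound isomerase of the thioredoxin family, was at 65.0, 57.7, 59.6 and 60.8 CPM in the controls and 69.3, 65.3, 61.4 and 76.9 CPM in the knockdown. Its groups overlapped, with knockdown replicate 3 among the controls and knockdown replicate 4 highest. It rose by 0.17 on the log2 scale (SE 0.06, edgeR adjusted p = 0.0309), but passed under 9 of the 19 alternatives. Leaving out control replicate 2, 3 or 4 or knockdown replicate 1 or 4 ended the call, with edgeR adjusted p of 0.0581 to 0.196.
P4hb, the archetypal protein disulfide isomerase and a subunit of collagen prolyl 4-hydroxylase, is the most abundant gene of the family. Its levels were 1435, 1422, 1475 and 1495 CPM in the controls and 1459.6, 1469.5, 1499 and 1459 CPM in the knockdown. The ranges lay on top of each other (log2 fold change 0.02, 95% interval -0.04 to 0.07, edgeR adjusted p = 0.743). Pdia3 (ERp57), which works with the lectins, had means of 1048 ± 7.09 and 1046 ± 10.7 CPM (SD, n = 4 each), and its 95% interval was -0.05 to 0.05. Pdia6, Pdia4 and Tmx1 had estimates of 0.04, 0.04 and 0.05 and did not pass. Txndc11 was low, at 6.01 CPM in each group.

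Of the secreted factors, Manf rose and Creld2 did not pass. Manf encodes a small protein that binds BiP and leaves the cell under ER stress (chromosome 9, 106888753 to 106891938). It was at 341, 309, 324 and 314 CPM in the controls and 360.1, 349, 346 and 357 CPM in the knockdown, with control replicate 1 close below the knockdown. Manf rose by 0.13 on the log2 scale (SE 0.03, edgeR adjusted p = 0.00195), to 109.6% of control. Scaling by library total gave 0.08 without a call (edgeR adjusted p = 0.0686), and so did FPKM (0.08, limma adjusted p = 0.117). Creld2, another stress-induced factor with a disulfide isomerase activity, was at 98.6 to 105 CPM in the controls and 104 to 120.5 CPM in the knockdown (log2 fold change 0.10, edgeR adjusted p = 0.118).

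Ppib had the largest rise of the 37 genes among those that passed. It encodes cyclophilin B, a prolyl isomerase that helps fold procollagen (chromosome 9, 66060169 to 66066629). It was at 421, 431, 438 and 460.1 CPM in the controls and 500.2, 522, 523 and 533 CPM in the knockdown, and the groups did not overlap, with control replicate 4 nearest to the knockdown. Ppib rose by 0.25 on the log2 scale (SE 0.03, edgeR adjusted p = 5.34e-08), to 118.8% of control, and passed under all 19 alternatives. Its expected counts were not whole in 7 of the 8 libraries, so the gene is less certain; how the fractional counts arose was not tested. The FK506-binding isomerases Fkbp2 and Fkbp14 were at 20.0 and 20.2 CPM and at 7.62 and 6.50 CPM in controls and knockdown and did not pass.

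None of the 5 translocon genes passed the edgeR test with TMM scaling, and none had an unadjusted p under 0.05. DESeq2 and limma voom also called none of them. Under library totals Sec61a1 (edgeR adjusted p = 0.0251) and Sec62 (edgeR adjusted p = 0.0359) fell, where 16.9% of all genes fell. On log2(FPKM + 0.5) Sec62 fell (limma adjusted p = 0.0437), where 12.8% of all genes fell. Sec61a1 encodes the channel itself and was at 586, 599, 607 and 607 CPM in the controls and 589.8, 605, 588 and 574 CPM in the knockdown. The ranges overlapped (log2 fold change -0.03, 95% interval -0.08 to 0.03, edgeR adjusted p = 0.581). The small subunits Sec61b and Sec61g had estimates of 0.03 and 0.05. Sec62 and Sec63, which assist chains that enter after translation, had estimates of -0.07 and -0.00; Sec62 ranged from 97.0 to 103 CPM in the controls and from 91.2 to 96.5 CPM in the knockdown, without overlap. Counts of Sec61g, Sec63 and Dnajc1 were not whole in 1 to 3 libraries.

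**Figure D2:**
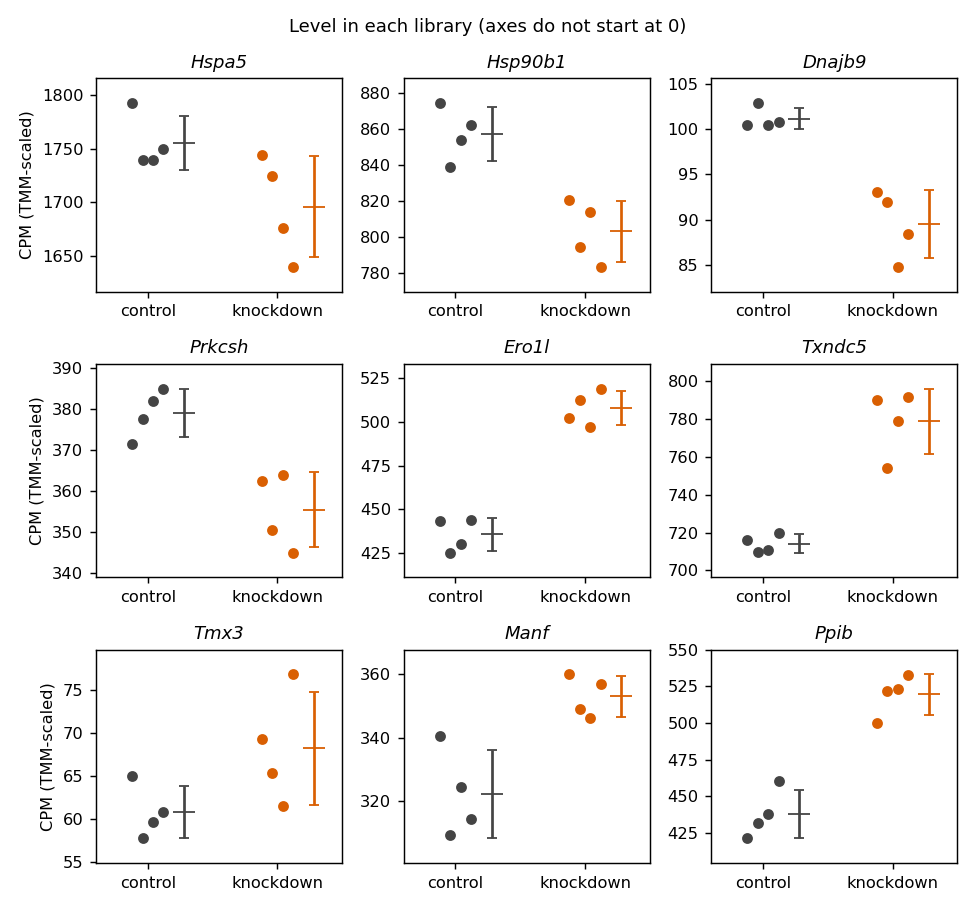
CPM scaled by TMM factors in each of the 4 control (grey) and 4 knockdown (orange) libraries for Hspa5 and the 8 genes that passed, with the mean and SD beside the points. Ero1l, Txndc5, Manf, Ppib, Hsp90b1, Dnajb9 and Prkcsh show no overlap between groups, while Hspa5 and Tmx3 do; the vertical axes do not start at 0.

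Levels of different genes were compared on the authors' FPKM, which is per transcript length. The 37 genes spanned from 1117 FPKM for Calr to 0.915 FPKM for Dnajc1, as means over all libraries. Above 100 FPKM lay 16 genes, 14 lay between 10 and 100, and 7 lay at or below 10. The first 6 were Calr, Hspa5, P4hb, Ppib, Pdia3 and Hsp90b1, which held 61.3% of the FPKM summed over the 37 genes in the controls. Calr was at 1149 ± 10.8 FPKM and Hspa5 at 699 ± 11.9 FPKM in the controls (SD, n = 4). Among 36 neighbouring pairs in the control order, 25 had ranges that did not touch, and 11 overlapped and could not be ordered. In the knockdown 23 pairs were apart. Precision followed the level: the median coefficient of variation over the controls was 1.77% for the 21 genes at 100 CPM or more and 11.3% for the 5 genes under 10 CPM.

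**Figure D3:**
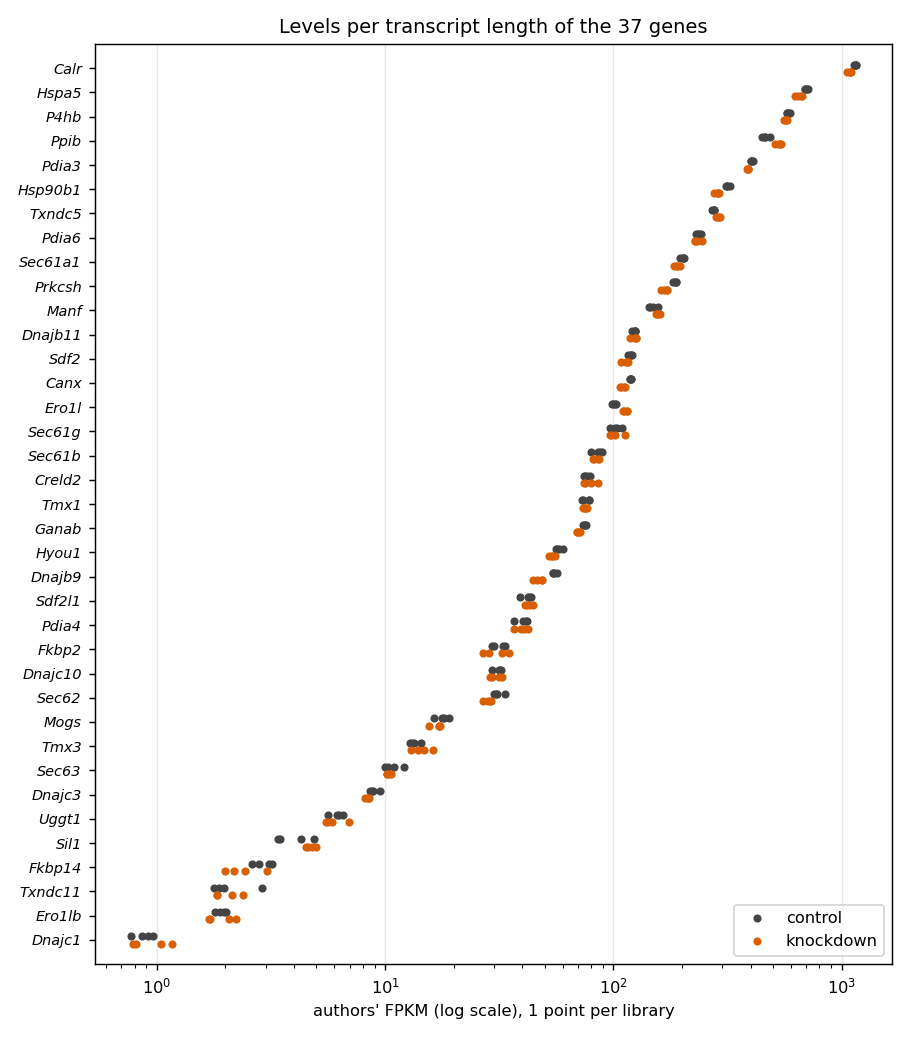
Authors' FPKM of the 37 genes in every library on a log axis, ordered by mean, with controls in grey and knockdown in orange. The order runs from Calr at 1117 FPKM to Dnajc1 at 0.915 FPKM, and differences between groups are small beside those between genes.

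The direction of small changes depended on the scaling. The 37 genes together took 1.35% to 1.36% of all counts in the controls and 1.3% to 1.32% in the knockdown, so every knockdown library lay below every control before TMM factors were applied. The unscaled shares of the roles differed in direction, and all 7 follow. The Hsp70 and Hsp90 share was 0.288% to 0.298% in the controls and 0.26% to 0.276% in the knockdown, lowest in knockdown replicate 4. The lectin and glycan share was 0.35% to 0.354% and 0.325% to 0.333%. The translocon share was 0.0885% to 0.0911% and 0.0848% to 0.0873%, and the share of BiP partners 0.0723% to 0.0727% and 0.0677% to 0.0718%. In the knockdown the shares of these 4 roles lay wholly below the controls. Without TMM factors the median log2 fold change of all tested genes was -0.06, and separation of shares was not computed for other gene sets. With TMM scaling the role medians were -0.05 (Hsp70 and Hsp90), -0.03 (lectin and glycan), -0.003 (translocon) and 0.04 (BiP partners). The disulfide isomerase share overlapped, at 0.455% to 0.463% and 0.456% to 0.46%, and so did that of the secreted factors, at 0.0421% to 0.0455% and 0.0447% to 0.0465%. The prolyl isomerase share was higher in the knockdown, at 0.0517% to 0.0546% against 0.0459% to 0.0491% in the controls, and rested on Ppib, which held 94.1% of the role's summed CPM in the controls, since Fkbp2 and Fkbp14 did not pass.
TMM factors were 1.01 to 1.03 in the controls and 0.974 to 0.987 in the knockdown. Scaling by library total alone therefore moved the median of all tested genes to -0.06 and the split of calls over all genes from 1285 higher and 1059 lower (54.8% higher) to 766 higher and 1951 lower (28.2% higher). Under that scaling 3 of the 37 rose (8.11%, against 6.62% of all genes) and 10 fell (27.0%, against 16.9%). Among the falls were Hspa5 at -0.11, Canx at -0.11, Calr at -0.08, Ganab at -0.10, Hyou1 at -0.10, Sec62 at -0.12 and Sec61a1 at -0.08. The median of the 37 was -0.05, against -0.06 for all tested genes. Shares at 100 CPM or more were not computed for this scaling. On FPKM 2 rose (5.41%, against 5.11% of all genes) and 8 fell (21.6%, against 12.8%). Ero1l and Ppib rose, and Hsp90b1, Dnajb9 and Prkcsh fell, under each of these scalings, and Txndc5 rose under library totals.

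**Figure D4:**
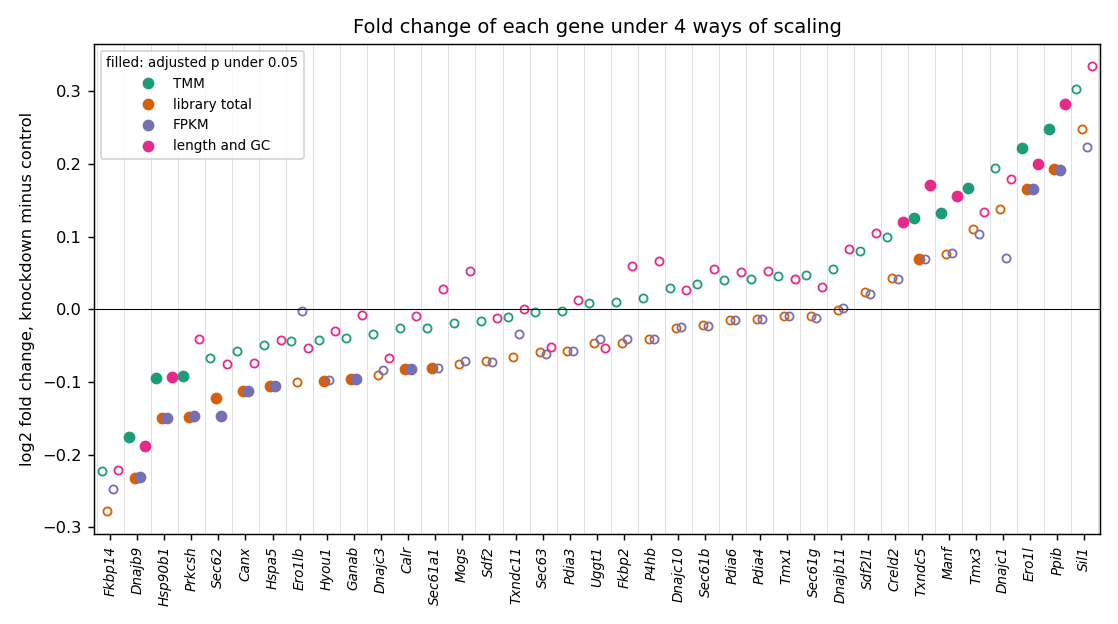
Log2 fold change of each of the 37 genes, knockdown minus control, under TMM factors, library totals, the authors' FPKM and TMM with length and GC content modelled; filled points passed an adjusted p of 0.05. Library totals and FPKM lie lower than TMM for nearly every gene, while Dnajb9, Hsp90b1, Ero1l and Ppib are filled under all 4.

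The calls with TMM scaling were set beside the sequences printed above. The 8 genes with an ERSE in the promoter window held none of these rises and 1 of the falls, Hsp90b1. With 11.1% of all genes rising and 9.15% falling at that scaling, counts this small cannot be told from the background. Under library totals and on FPKM, Hspa5, Calr and Canx fell as well, where 16.9% and 12.8% of all genes fell. With length and GC content modelled, Creld2 rose (edgeR adjusted p = 0.0473), where 1412 of 11442 tested genes rose. With TMM scaling the log2 fold changes of the 8 lay between -0.09 and 0.10 with a median of -0.04, and 6 of the 8 were negative. The 24 genes in the promoter table without the element in the window lay between -0.22 and 0.25 with a median of 0.01. With TMM scaling these 24 held 3 rises, Ero1l, Txndc5 and Ppib, and 2 falls, Dnajb9 and Prkcsh. Ganab and Sec62 of the 24 fell as well under library totals and on FPKM. Hyou1, Tmx3, Sil1, Manf and Sec61a1 were not searched. These are descriptions without a test.

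Genes that act beside the 37 were examined from a list of 66 other genes of the early secretory pathway, 62 of which were tested. The list was chosen with earlier results of these data known, so its shares are descriptions only. Of these 19 rose and 2 fell, with a median log2 fold change of 0.04. By direction 30.6% rose, against 11.1% of all tested genes, and 3.23% fell, against 9.15%. Level bears on these shares: of the 29 with at least 100 CPM in both groups 11 rose (37.9%), against 28.2% of all genes at that level, and 1 fell (3.45%), against 9.85%. Their median log2 fold change was 0.03, and so was that of all genes at that level. Whether this list and the 37 genes differ was not tested. Without knockdown replicate 4, 18 rose and 1 fell. Without control replicate 1 or knockdown replicate 2, 1 fell as well. Under library totals 12 rose and 6 fell.
For each single list that follows, the shares over all tested genes were 11.1% rising and 9.15% falling. At 100 CPM or more in both groups 28.2% of all genes rose. Whether any single list differs from other genes was not tested. Among 28 other ER folding genes, 9 rose and 1 fell. At 100 CPM or more in both groups 6 of 11 rose. The disulfide oxidase Qsox1 rose by 0.27 (SE 0.03, edgeR adjusted p = 1.41e-08), the prolyl isomerase Ppic by 0.28 (SE 0.03) and the peroxiredoxin Prdx4, which makes disulfides from peroxide, by 0.21 (SE 0.03) on the log2 scale. Hspa13, a microsomal Hsp70 relative, fell by 0.14 (SE 0.05, edgeR adjusted p = 0.03).
Among 11 translocon partners and signal peptidase subunits, 5 rose and none fell; at 100 CPM or more in both groups 3 of 5 rose. They included Ssr2, a subunit of the translocon-associated TRAP complex (0.24, SE 0.03, edgeR adjusted p = 1.93e-07), and the signal peptidase subunits Sec11a (0.33, SE 0.05) and Spcs3 (0.23, SE 0.05).
Of 12 oligosaccharyltransferase genes, which attach N-glycans to entering chains, 5 rose and none fell, among them Ostc (0.26, SE 0.04), Tusc3 (0.28, SE 0.05) and Stt3b (0.20, SE 0.06). At 100 CPM or more in both groups 2 of 6 of these rose. Among 8 signal recognition genes Srp72 fell (-0.13, SE 0.03, edgeR adjusted p = 0.00562) and none rose. The 3 KDEL receptors, which return escaped chaperones to the ER, had estimates of -0.05 to -0.01; edgeR called 0 of them, and 0 reached an unadjusted p of 0.05.

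**Figure D5:**
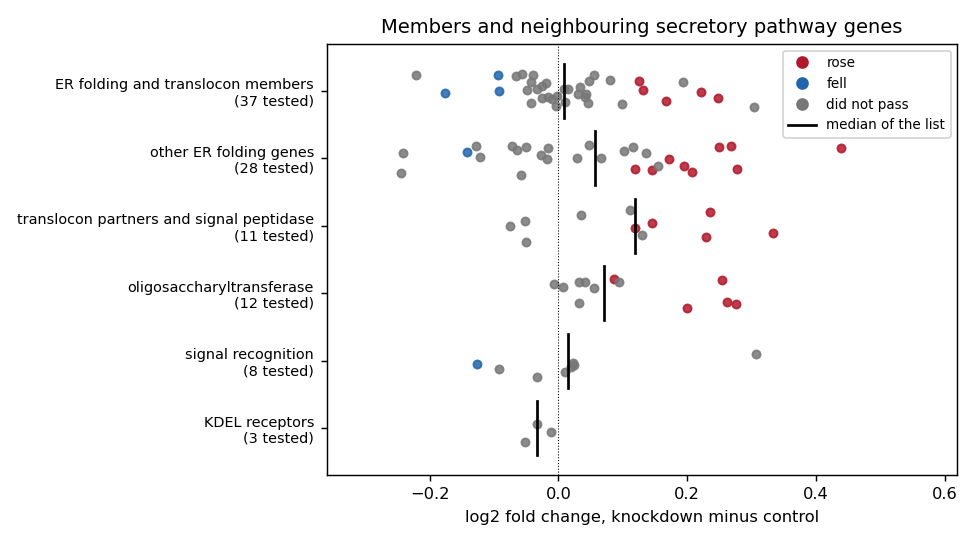
Log2 fold change, knockdown minus control, of the 37 genes and of 62 tested neighbours in 5 lists, each point a gene and each black bar the median of its list. Rises (red) are seen in the folding, translocon partner and oligosaccharyltransferase lists and among the 37 genes, and the KDEL receptor points are all grey.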

How the data were processed

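RNA of 8 TCMK-1 samples, enriched with oligo(dT) beads per the labels' protocols, was sequenced. Per the file headers, the authors' deposited values are counts and FPKM. The authors' counts are here called expected counts, because 6.52% of the values are not whole (tolerance 1e-09). The submitters' processing notes list, without roles, HISAT2 2.4, Bowtie2 2.2.8, RSEM, StringTie 1.3.1, fastp 0.18.0, edgeR and DESeq2, with mouse build GRCm38.p6. The sources used here give neither strandedness nor annotation; overlapping and antisense genes may share reads.

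Expected counts were rounded and tested with edgeR 4.0.16 (R 4.3.3): default expression filter, TMM factors, robust quasi-likelihood fit on group, two-sided, Benjamini-Hochberg adjustment over 11576 genes. CPM are scaled by TMM factors. Intervals cover 95%. Gene positions are from RefSeq's GRCm38.p6 table. In CPM, 3 counts equal 0.181 to 0.257 per library, for counting error only. The procedure was tested on simulated data. The changes put in were all larger than those of the called members, so changes of their size were not covered. Replicates differed by more than sampling noise (chi-square per degree of freedom 1.94 to 3.94).

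The members and lists were chosen with earlier results of these data known. By the naming rule, Hspa5, every called member and the most abundant member of each role group by FPKM are given in every library, with up to 3 called genes per direction and neighbour list; Canx, Ganab, Sec62 and Sil1 were added after their values were seen. Alternatives were DESeq2 1.42.0, limma 3.58.1 (voom, and log2(FPKM + 0.5) or + 0.1), other size factors and filters, a threshold of 0.01, a replicate block and leaving out each library. Chosen after seeing the data were a spline correction for length and GC content of the longest GENCODE M21 transcript and the background at 100 CPM. Protein sequences were not used here.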

Additional observations from a re-analysis of the deposited data

Results flagged for a closer look

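In 4 of 78 sets of 4 replicate values, the extreme value lay far from the remaining 3, about the 5% that chance gives. Sdf2, a partner of the J protein ERdj3, was at 137 CPM in knockdown replicate 2 and at 147 to 149 CPM in the other knockdown libraries. Dnajb9 was at 103 CPM in control replicate 2 and at 100.4 to 101 CPM in the other controls; this library lies away from the knockdown. Uggt1, the glycoprotein folding sensor, was at 61.1 CPM in knockdown replicate 4 against 49.0 to 50.8 CPM. Sec62 was at 103 CPM in control replicate 1 against 97.0 to 97.4 CPM.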

How the results depend on the processing

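Across 19 alternatives no call among the 37 genes changed direction, 21 calls were lost and 19 gained over 702 gene and setting pairs, and 60 estimates changed sign, all without a call on either side. Ero1l, Ppib, Dnajb9 and Rap1gds1 passed in all 19. Under library totals 3 members rose and 10 fell, 12 other secretory genes rose and 6 fell, and 766 genes rose and 1951 fell over all. On log2(FPKM + 0.5) these were 2 and 8, 11 and 6, and 592 and 1481, and on log2(FPKM + 0.1) 2 and 8, 11 and 6, and 588 and 1475. The members' median was -0.0468 under library totals, -0.0403 on either FPKM scale, and 0.0278 with the length and GC correction. At a threshold of 0.01, 4 members rose and 1 fell, 17 other secretory genes rose and 1 fell, and 825 genes rose and 580 fell over all. Leaving out 1 library at a time gave 4 to 5 rises and 2 to 3 falls among members, a median of -0.00946 (without knockdown replicate 4) to 0.0214, 18 to 20 rises and 1 to 3 falls among other secretory genes, 1033 to 1227 rises and 802 to 997 falls over all, and a difference in the share of counts of -0.0465 to -0.0401 percentage points. The labels do not say whether a shared replicate number marks paired samples. Correlations of same-numbered deviations were 0.06, 0.08, -0.04 and 0.06. Control replicates 1, 2 and 4 were closest to the knockdown library of their own number. Control replicate 3 was closest to knockdown replicate 4 (0.04). Whether the samples are paired was not tested. With the replicate block 5 members rose and 3 fell as before, 20 and 4 other secretory genes rose and fell, and 1425 and 1235 genes over all. Depth limits the 5 members under 10 CPM, whose standard errors were 0.133 to 0.159 against 0.0255 to 0.0452 for those at 100 CPM or more.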

Other observations

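Outside the 37 genes, 29 genes of the promoter table held an ERSE in the searched window, and 9 of them were tested. Of all 17 tested genes with an ERSE, members included, 1 rose and 2 fell. Over all tested genes 11.1% rose and 9.15% fell. Syvn1, the ubiquitin ligase HRD1 of ER-associated degradation, fell by 0.22 on the log2 scale, from 37.6 to 32.4 CPM (edgeR adjusted p = 0.0116, SE 0.06). Hnrnpa3, an RNA-binding protein gene, rose by 0.20 on the log2 scale, from 115 to 132 CPM (edgeR adjusted p = 0.00117, SE 0.05). Alg12, a mannosyltransferase of N-glycan assembly, was at 33.0 and 31.6 CPM and did not pass. Adcy3, Pan2, Ptgdr2, Xlr3b, Xlr3c and Zfp57 did not pass either. Syvn1, Hnrnpa3 and Alg12 were picked out after their values were seen.

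The controls differed among themselves across the 37 genes. Control replicate 2 had the lowest control level for 18 of the 37 and control replicate 4 the highest for 16. In the knockdown, replicate 4 was highest for 14 and lowest for 10.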
